A study of Mus musculus with 16 samples.

Results

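The MYC and MAX network was read as 10 genes: Myc, Mycn, Mycl, Max, Mxd1, Mxd3, Mxd4, Mxi1, Mnt and Mga. They were chosen by symbol, as the MYC, MAX and MXD genes of the mouse, and not by any measured value, though earlier results of these data were known. All 10 were found among the 50686 gene identifiers of both deposited tables. The libraries are bulk RNA-seq of mouse haematopoietic stem cells (HSCs), 10000 cells in the G0 and G1 phases sorted from bone marrow of C57BL/6J mice. Treatment ran for 85 days, with 100 μL injected intraperitoneally once every 48 h, in a carrier of 20% DMSO and 40% PEG 400 in PBS that every group received. The vehicle group had the carrier alone. The palbociclib group had 30.4 mg/kg of palbociclib, an inhibitor of the cell cycle kinases CDK4 and CDK6, which the labels also call PD. The rapamycin group had 6.4 mg/kg of rapamycin, an inhibitor of the growth kinase mTOR, and the combination group had both drugs at those doses. Each group has 4 libraries. The labels used here do not give the age of the mice or say whether each library is 1 animal, so the tests can be read only against library-to-library spread, some of which may be technical.

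MYC, MYCN and MYCL are transcription factors that bind DNA as pairs with MAX. The pairs bind the E-box, CACGTG, and raise transcription of genes for ribosomes, metabolism and growth. MXD1, MXD3, MXD4, MXI1 (also called MXD2) and MNT compete for MAX, bind the same sites and bring the SIN3 and histone deacetylase corepressor, so the network is often described as a balance of activating and repressing partners. MGA also pairs with MAX and carries it into a variant Polycomb complex, PRC1.6. In HSCs, MYC and MYCN are known for their part in cell growth, survival and the choice between self-renewal and differentiation, and MXD1 for its rise as granulocytes mature.

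Promoter sequences of 9 of the 10 genes were matched in RefSeq (build GRCm38.p6, the 250 bases before each start of transcription), as 11 promoters. Myc was the gene without a match. A search of both strands looked for the E-box CACGTG, for the E2F motifs TTTCCCGC, TTTCGCGC, TTTGCCGC and TTTGGCGC, and for the FOXO motif GTAAACA. Of the 32851 promoters of the same length, 6.02% held the E-box, 1.86% an E2F motif and 3.17% the FOXO motif. Among the network's promoters, the E-box was present in Mxd4, with its first base at -219 from the start, and in Mnt, at -123. E2F letters were found 3 times in Mycn, at -183, -179 and -168, the first 2 of them overlapping on opposite strands, and the FOXO letters once in 1 of the 3 Mxi1 promoters, at -231. The 3 promoters with an E-box or E2F letters follow, 5′ to 3′ along the gene, with the matches in capitals. Mxd4 and Mnt are shown because both were lower with palbociclib and varied together across libraries, and Mycn because E2F factors act downstream of the kinases that palbociclib inhibits. They were chosen after the values were seen. The Mxd4 promoter is chr5:34187711-34187960 (minus strand), the Mnt promoter chr11:74830674-74830923 (plus strand) and the Mycn promoter chr12:12941837-12942086 (minus strand).
Mxd4: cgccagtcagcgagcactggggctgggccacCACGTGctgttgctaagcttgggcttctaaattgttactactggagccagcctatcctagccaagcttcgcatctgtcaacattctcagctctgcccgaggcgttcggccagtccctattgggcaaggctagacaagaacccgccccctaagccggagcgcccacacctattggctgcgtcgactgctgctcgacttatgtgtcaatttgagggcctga
Mnt: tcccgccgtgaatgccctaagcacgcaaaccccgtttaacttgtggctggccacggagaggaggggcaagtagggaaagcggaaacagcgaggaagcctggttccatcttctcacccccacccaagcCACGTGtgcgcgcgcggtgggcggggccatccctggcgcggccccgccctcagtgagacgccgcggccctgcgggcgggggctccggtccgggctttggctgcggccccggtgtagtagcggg
Mycn: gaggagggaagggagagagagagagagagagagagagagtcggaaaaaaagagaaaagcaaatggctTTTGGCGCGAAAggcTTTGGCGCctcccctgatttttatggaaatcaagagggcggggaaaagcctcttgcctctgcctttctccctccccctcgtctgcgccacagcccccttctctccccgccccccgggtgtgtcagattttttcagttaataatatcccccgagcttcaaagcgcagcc
A match describes these letters only, and binding was not measured.

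The libraries held 10133860 to 15328830 counts, with 16570 to 20418 genes detected. All 12 markers listed for HSCs were present in the vehicle libraries, among them Slamf1, which encodes the sort marker CD150, at 38.3 CPM (counts scaled to the size of the library), Ly6a (Sca-1) at 455 CPM and Kit at 235 CPM. All 19 listed genes of neutrophils and their progenitors were also present, at a summed share of 1.34% to 6.76% of counts in the vehicle libraries, 1.33% to 9.93% with palbociclib, 0.881% to 6.41% with rapamycin and 1.13% to 7.55% with both drugs. B cell genes summed to 0.166% to 3.25%, 0.0354% to 1.06%, 0.0109% to 0.155% and 0.00568% to 0.732% in the same order, and neither list had a gene at 0 throughout a group. The 3 libraries with the lowest median correlation to the rest were vehicle 4, vehicle 3 and rapamycin 3, at 0.907, 0.907 and 0.911. In bulk samples, fewer cells of a type and less RNA per cell cannot be told apart.

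In the vehicle libraries, 9 of the 10 genes were expressed, and the repressor Mxd1 had the highest mean level per transcript length. Mxd1 averaged 54.5 ± 5.30 TPM (counts scaled to transcript length and library size; SD, n = 4), Myc 41.1 ± 9.18 TPM, Mxd4 38.0 ± 6.35 TPM, Max 30.8 ± 16.4 TPM and Mycn 25.7 ± 20.6 TPM. Below these stood Mxi1 at 15.4 ± 4.34 TPM, Mga at 7.97 ± 6.27 TPM, Mxd3 at 4.15 ± 1.06 TPM and Mnt at 3.10 ± 0.573 TPM. Every pair of neighbours in this order overlapped between libraries, down to Mnt, so the order of adjacent genes is not resolved by 4 libraries. Mxd1 was not the highest in every library. Mycn was above it in vehicle 1 (55.4 against 50.4 TPM) and Myc in vehicle 3 (54.3 against 52.5 TPM). Mycl, which encodes the third MYC protein, had 0 counts in all 16 libraries. A count of 0 allows up to 3 counts, or 0.194 to 0.330 CPM depending on the library, and this limit covers counting error only. Mycl was therefore not tested, and the other 9 genes were among the 15308 genes that passed the filter on low counts.

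Levels are given below as CPM scaled by the trimmed mean of M values (TMM), which compares 1 gene across libraries. Differences are log2 fold changes with their standard error from edgeR's quasi-likelihood test, with Benjamini-Hochberg adjustment over the 15308 genes and a threshold of 0.05.

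**Figure D1:**
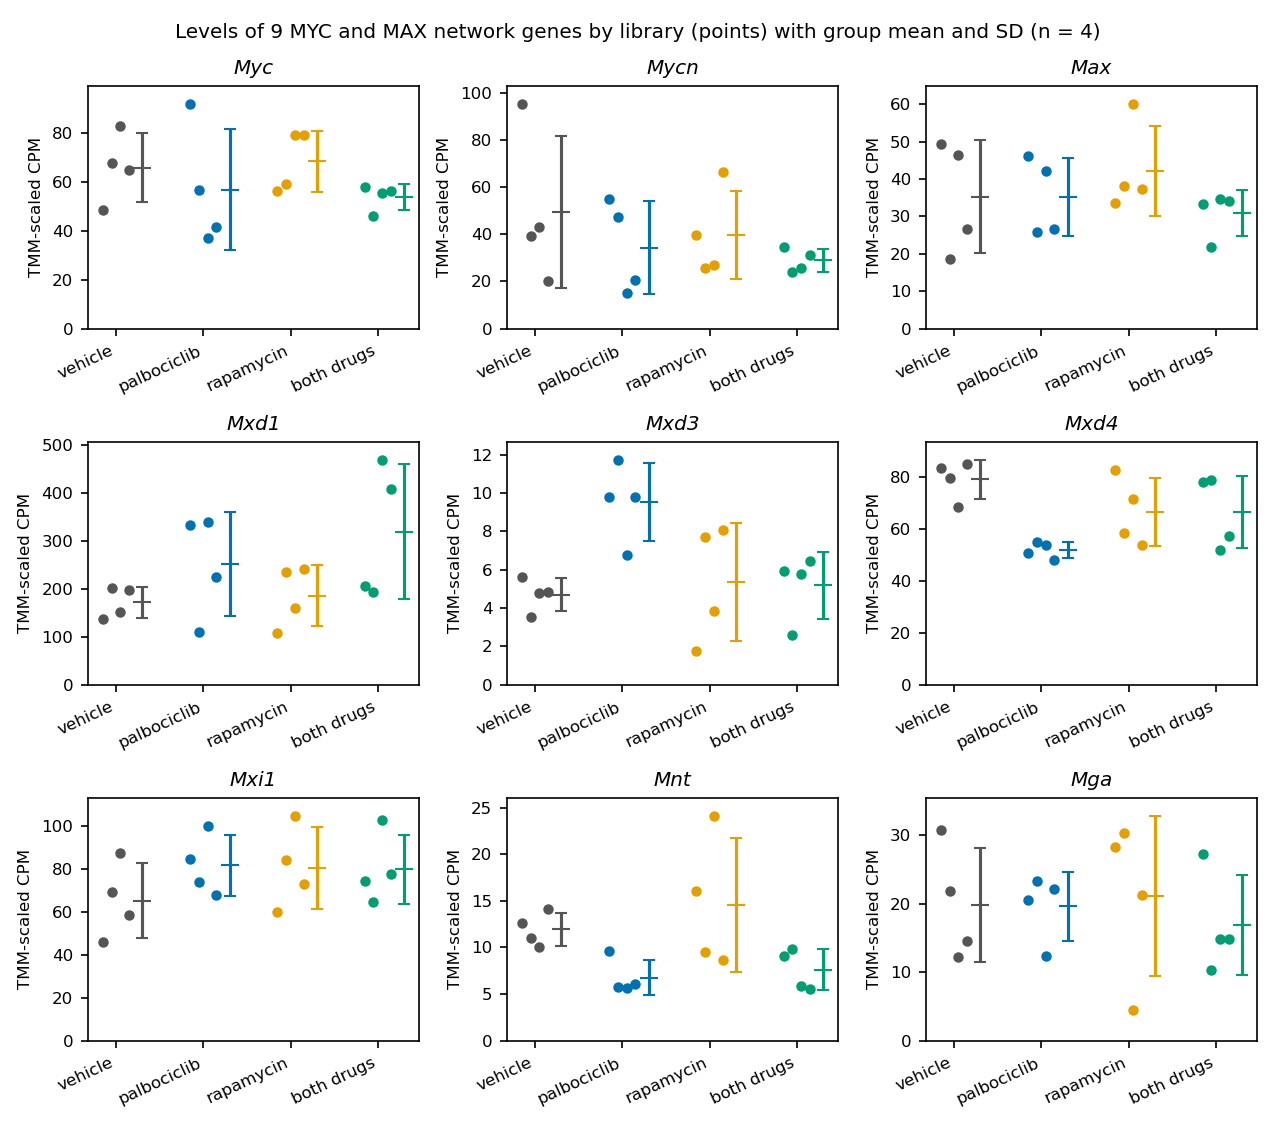
Level of each of the 9 detected network genes in the 16 libraries, by group, in TMM-scaled CPM on a linear axis from 0. Points are libraries, and the horizontal mark and bar are the mean and SD of 4 libraries. Mxd4 lies lower in all 4 palbociclib libraries than in any vehicle library, and Mnt lies lower in every palbociclib and every combination library than in any vehicle library.

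Myc did not separate any group. The gene (ENSMUSG00000022346, chromosome 15, 61985391 to 61990374, plus strand, mm10) stood at 48.6, 67.7, 82.9 and 64.9 CPM in vehicle libraries 1 to 4, at 92.1, 56.6, 37.3 and 41.8 CPM with palbociclib, at 56.4, 59.1, 79.2 and 79.5 CPM with rapamycin, and at 58.2, 46.1, 55.4 and 56.4 CPM with both drugs. Palbociclib 1 held the highest and palbociclib 3 the lowest level of all 16 libraries, so the palbociclib group spanned the whole range. The log2 difference from vehicle was -0.21 ± 0.25 with palbociclib (95% interval -0.75 to 0.32), 0.05 ± 0.25 with rapamycin (-0.48 to 0.59) and -0.29 ± 0.25 with both drugs (-0.83 to 0.25), with edgeR adjusted p of 0.844, 0.992 and 0.762. The intervals for palbociclib and the combination hold no change, decreases down to -0.75 and -0.83, and increases up to 0.32 and 0.25 on the log2 scale.

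Mycn (ENSMUSG00000037169, chromosome 12, 12936093 to 12941914, minus strand), the MYC protein gene with the wider spread, stood at 95.3, 39.5, 43.2 and 20.0 CPM in the vehicle libraries. It was at 54.8, 47.2, 15.0 and 20.5 CPM with palbociclib, 39.8, 25.8, 27.1 and 66.3 CPM with rapamycin, and 34.6, 24.0, 25.9 and 31.3 CPM with both drugs. Vehicle 1 stood above all others and the combination libraries were tightly spaced, but each group overlapped the vehicle group. With both drugs the log2 difference was -0.78 ± 0.46 (95% interval -1.76 to 0.21, edgeR adjusted p = 0.612), and it was -0.24 without vehicle 1 and -1.03 without vehicle 4. The difference with palbociclib alone was -0.52 ± 0.46 and with rapamycin alone -0.32 ± 0.46, neither of which passed. Mycn made up 34.8% ± 18.5 (SD, n = 4) of the summed Myc and Mycn TPM in vehicle libraries, with vehicle 1 at 61.5%, and 28.9% ± 2.73 with both drugs.

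Max (ENSMUSG00000059436, chromosome 12, 76937269 to 76962201, minus strand) encodes the shared partner of the network. Its levels were 49.4, 18.5, 46.5 and 26.7 CPM in vehicle libraries, 46.0, 25.8, 42.3 and 26.6 CPM with palbociclib, 33.6, 38.2, 60.1 and 37.2 CPM with rapamycin, and 33.3, 21.7, 34.5 and 34.0 CPM with both drugs. All groups overlapped, and the vehicle libraries alone covered most of the range. The palbociclib difference was -0.01 ± 0.31 on the log2 scale (95% interval -0.67 to 0.66). The rapamycin difference of 0.26 ± 0.31 (edgeR adjusted p = 0.939) became 0.04 without rapamycin 3 and 0.46 without vehicle 1. Against rapamycin alone, the combination differed by -0.45 ± 0.31 (edgeR adjusted p = 0.703), and by -0.23 without rapamycin 3.

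Mxd1 (ENSMUSG00000001156, chromosome 6, 86647042 to 86669161, minus strand), the most abundant of the repressing partners, had its highest levels in treated libraries. It stood at 137, 202, 151 and 197 CPM with vehicle and at 334, 110, 340 and 225 CPM with palbociclib. With rapamycin it stood at 107, 235, 159 and 241 CPM, and with both drugs at 207, 193, 469 and 410 CPM. Combination libraries 3 and 4 were above every other library, while combination libraries 1 and 2 lay beside the vehicle libraries, so the groups overlapped. The combination differed from vehicle by 0.90 ± 0.36 on the log2 scale, 1.86-fold (95% interval 0.13 to 1.66, edgeR unadjusted p = 0.0251, adjusted p = 0.395), and from rapamycin alone by 0.78 ± 0.36 (unadjusted p = 0.0455, adjusted p = 0.502). Palbociclib alone gave 0.55 ± 0.36 and rapamycin alone 0.11 ± 0.36, and adding rapamycin to palbociclib gave 0.34 ± 0.36, which was 0.09 without palbociclib 2. Averaged over rapamycin, palbociclib gave 0.67 ± 0.26 (unadjusted p = 0.0186, edgeR adjusted p = 0.264).

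Mxd1 followed the neutrophil gene share of each library. Over 16 libraries, log2 Mxd1 and the log2 neutrophil share had Pearson's r = 0.754 (permutation p = 0.000770, adjusted p = 0.0139 over 18 relations of 9 genes with the neutrophil and B cell shares) and Spearman's rho = 0.803 (permutation p = 0.000280, adjusted p = 0.00504). It was 0.747 with the 2 libraries of most extreme share left out, and 0.883 with values centred within each group. With the B cell share, Pearson's r was 0.468 (permutation p = 0.0684, adjusted p = 0.246). Centred within each group, that relation was 0.681 (permutation p = 0.00991, adjusted p = 0.0446). With log2 neutrophil and B cell shares as covariates, the combination difference was 0.85 ± 0.23 (edgeR adjusted p = 0.212) and did not pass, and the averaged palbociclib difference was 0.44. The part of neutrophil or B cell RNA in the Mxd1 level was not tested.

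Mxi1 (ENSMUSG00000025025, chromosome 19, 53310518 to 53375810, plus strand), a close relative of Mxd1, had 45.9, 69.6, 87.6 and 58.5 CPM in vehicle libraries and 60.2 to 105 CPM over the 12 treated libraries. The group means with palbociclib, rapamycin and both drugs were 81.9 ± 14.2, 80.6 ± 19.0 and 79.96 ± 16.2 CPM against 65.4 ± 17.7 CPM with vehicle (SD, n = 4 each), and all groups overlapped. The rapamycin difference was 0.30 ± 0.22 (edgeR adjusted p = 0.857), and 0.15 without rapamycin 3 or 0.48 without vehicle 3. Mxi1 also followed the neutrophil share (r = 0.673, permutation p = 0.00384, adjusted p = 0.0346). Its rank correlation of 0.571 (permutation p = 0.0233) had an adjusted p of 0.140, r was 0.636 with the 2 libraries of most extreme share left out (permutation p = 0.0141, adjusted p = 0.127), and within groups r was 0.699. The interaction term for Mxi1 was -0.34 ± 0.31 (edgeR adjusted p = 0.985).

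**Figure D2:**
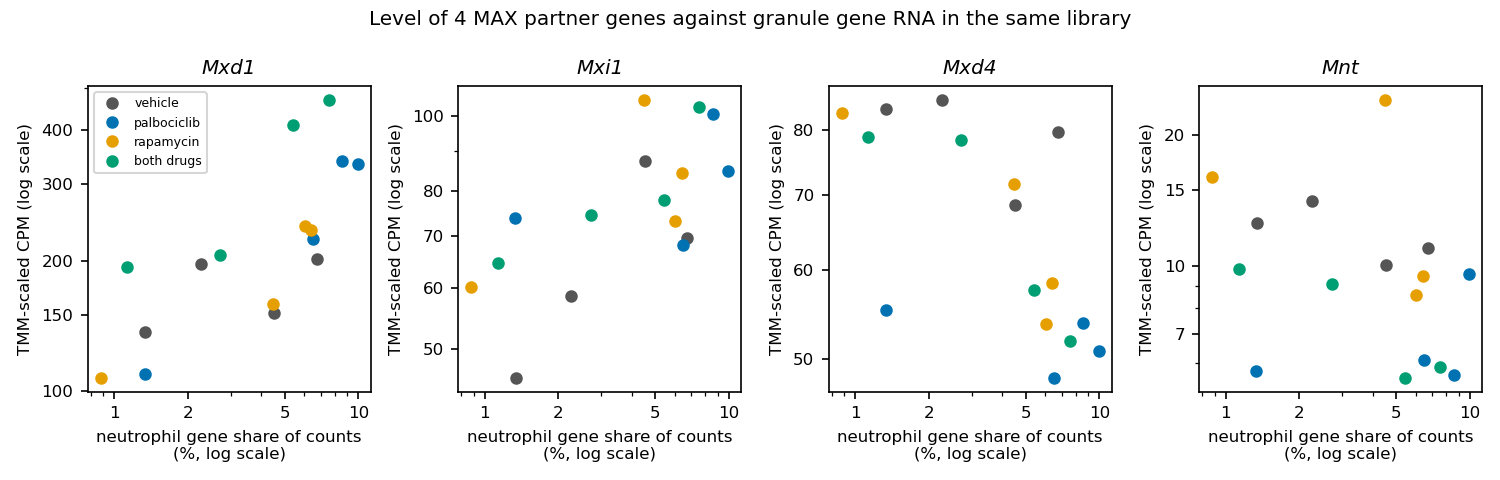
TMM-scaled CPM of Mxd1, Mxi1, Mxd4 and Mnt (vertical, log scale) against the summed share of counts in 19 neutrophil genes (horizontal, percent, log scale), 1 point per library, coloured by group. Mxd1 and Mxi1 lie higher and Mxd4 lower where the share is higher, with r = 0.754, 0.673 and -0.660 over the 16 libraries.

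Mxd4 (ENSMUSG00000037235, chromosome 5, 34173883 to 34187720, minus strand), a repressing partner, separated palbociclib from vehicle. It stood at 83.6, 79.7, 68.6 and 85.1 CPM in vehicle libraries and at 50.8, 55.2, 53.8 and 48.1 CPM with palbociclib. It stood at 83.0, 58.4, 71.6 and 53.7 CPM with rapamycin and at 78.3, 78.8, 51.8 and 57.5 CPM with both drugs. The 4 palbociclib libraries were all below the 4 vehicle libraries, whereas the rapamycin and combination libraries spread over both ranges. The palbociclib difference was -0.61 ± 0.18 on the log2 scale, 1.52-fold lower (95% interval -0.98 to -0.23), with an edgeR unadjusted p of 0.00342 and an adjusted p of 0.323, so it did not pass. Over the alternatives and left-out libraries its adjusted p ran from 0.0912 to 0.825.

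Rapamycin alone gave -0.25 ± 0.18 for Mxd4 (edgeR adjusted p = 0.846), which was -0.08 in limma on log2(TPM + 1) and ran from -0.37 without rapamycin 1 to -0.16 without rapamycin 4. The combination gave -0.25 ± 0.18 against vehicle and 0.36 ± 0.18 against palbociclib alone. The interaction term, which asks whether palbociclib and rapamycin together differ from the sum of each alone, was 0.61 ± 0.25 (unadjusted p = 0.0271, edgeR adjusted p = 0.841) and did not pass. Averaged over rapamycin, the palbociclib difference was -0.30 ± 0.13 (unadjusted p = 0.0270, edgeR adjusted p = 0.293). Mxd4 was lower where the neutrophil share was higher (r = -0.660, permutation p = 0.00707, adjusted p = 0.0424; rho = -0.679, permutation p = 0.00489, adjusted p = 0.0440). The relation was -0.562 with the 2 libraries of most extreme share left out (permutation p = 0.0364, adjusted p = 0.219) and -0.734 within groups. With the blood cell shares as covariates the palbociclib difference was -0.50 ± 0.17 (edgeR adjusted p = 0.440). Among the libraries given palbociclib, those with the lowest neutrophil shares were combination 2 (1.13%), palbociclib 2 (1.33%) and combination 1 (2.72%), at 78.8, 55.2 and 78.3 CPM of Mxd4. Among the libraries without palbociclib, vehicle 2 (6.76%), rapamycin 2 (6.41%) and rapamycin 4 (6.02%) had the highest shares. They stood at 79.7, 58.4 and 53.7 CPM of Mxd4. The part of neutrophil RNA in the Mxd4 level was not tested.

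Mxd3 (ENSMUSG00000021485, chromosome 13, 55325168 to 55329823, minus strand), a repressing partner known from proliferating cells, was the only network gene above the vehicle range in all 4 palbociclib libraries. Its levels were low throughout, at 5.60, 3.55, 4.80 and 4.85 CPM with vehicle and 9.79, 11.7, 6.78 and 9.79 CPM with palbociclib. They were 1.75, 7.74, 3.83 and 8.06 CPM with rapamycin and 5.93, 2.59, 5.76 and 6.45 CPM with both drugs, which put all combination libraries below all palbociclib libraries. Palbociclib differed from vehicle by 1.02 ± 0.46 (2.03-fold, 95% interval 0.04 to 2.00, edgeR unadjusted p = 0.0423, adjusted p = 0.504). The combination differed from palbociclib by -0.88 ± 0.46 and from vehicle by 0.14 ± 0.46, and the interaction was -1.06 ± 0.65 (edgeR adjusted p = 0.962). Averaged over palbociclib, rapamycin gave -0.35 ± 0.32, and none of these differences passed.

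Mnt (ENSMUSG00000000282, chromosome 11, 74830920 to 74845725, plus strand), the repressing partner found in most cell types, was low wherever palbociclib was given. It stood at 12.6, 11.0, 10.0 and 14.1 CPM with vehicle and 16.04, 9.52, 24.1 and 8.61 CPM with rapamycin. It stood at 9.62, 5.73, 5.62 and 6.11 CPM with palbociclib and 9.10, 9.87, 5.86 and 5.55 CPM with both drugs. No palbociclib or combination library reached the lowest vehicle library, while rapamycin 2 and 4 lay within the range of the palbociclib-treated libraries. The log2 difference from vehicle was -0.82 ± 0.36 with palbociclib (1.76-fold lower, 95% interval -1.58 to -0.05, edgeR unadjusted p = 0.0378, adjusted p = 0.493) and -0.65 ± 0.36 with both drugs (edgeR adjusted p = 0.572). On the log2(TPM + 1) scale the latter was -0.41.

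Averaged over rapamycin, with 8 libraries on each side, palbociclib gave -0.88 ± 0.25 for Mnt, 1.84-fold lower (edgeR unadjusted p = 0.00331, adjusted p = 0.142). This was the smallest p of the network in any comparison and did not pass in edgeR. DESeq2 on the same genes gave -0.88 ± 0.26 with an adjusted p of 0.0303, the 1 call of a network gene among all alternatives, and the adjusted p over all alternatives and left-out libraries ran from 0.0303 to 0.505. Of all 15308 tested genes, DESeq2 called 475 in this contrast and edgeR 42. The combination differed from rapamycin alone by -0.94 ± 0.36 (edgeR unadjusted p = 0.0190, adjusted p = 0.378), and by -0.58 without rapamycin 3, which held the highest Mnt level of the series. Mnt had no relation with the neutrophil share that passed (r = -0.347, permutation p = 0.189, adjusted p = 0.487).

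Mga (ENSMUSG00000033943, chromosome 2, 119897228 to 119969581, plus strand), which links MAX to Polycomb, stood at 30.7, 21.8, 12.3 and 14.5 CPM with vehicle and at 12.3 to 23.4 CPM with palbociclib, 4.55 to 30.3 CPM with rapamycin and 10.3 to 27.3 CPM with both drugs. The 4 ranges overlapped almost wholly. Its 3 differences from vehicle were -0.02 ± 0.47, 0.09 ± 0.47 and -0.24 ± 0.47 in the order palbociclib, rapamycin and both drugs. The 95% interval with palbociclib, -1.01 to 0.98, is wide enough to hold a change of either sign of nearly 1 on the log2 scale.

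**Figure D3:**
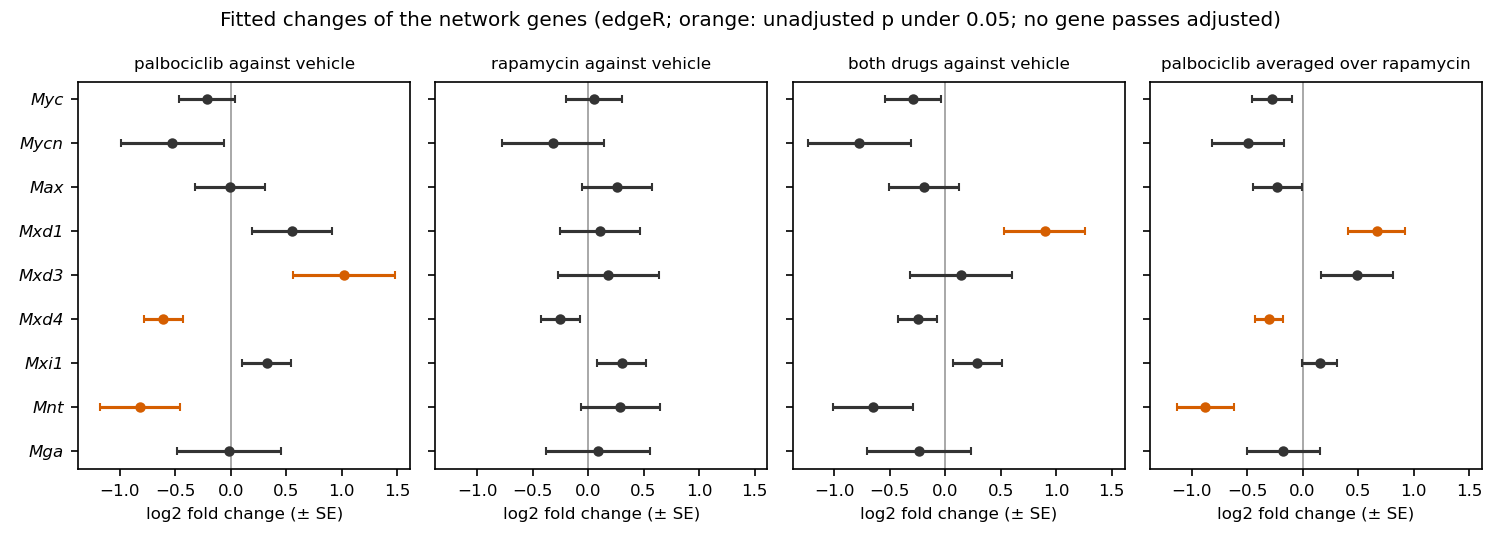
Log2 fold change of each of the 9 tested genes in the contrasts against vehicle and in the palbociclib effect averaged over rapamycin, with bars of 1 standard error from edgeR's quasi-likelihood fit. Mnt and Mxd4 lie to the left of 0 and Mxd3 and Mxd1 to the right with palbociclib, and no gene passed an adjusted p of 0.05.

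Counted over the network, edgeR called 0 of the 9 tested genes in each of the 8 contrasts. The calls over all 15308 genes were also few: 0% for palbociclib against vehicle, 0.00653% (1 gene) for rapamycin against vehicle and 0% for both drugs against vehicle. They were 0% for both drugs against palbociclib, 0.0327% (5 genes) for both drugs against rapamycin and 0% for the interaction. They were 0.274% (42 genes) for palbociclib averaged over rapamycin and 0% for rapamycin averaged over palbociclib. At an unadjusted edgeR p under 0.05 there were 3 network genes for palbociclib against vehicle, where 9.51% of all genes were past it, 0 for rapamycin (7.65%), 1 for both drugs (10.5%), 0 for both against palbociclib (2.85%), 2 for both against rapamycin (9.79%), 1 for the interaction (5.67%), 3 for averaged palbociclib (13.8%) and 0 for averaged rapamycin (4.64%). The count of 42 genes ranged from 6 without combination 4 to 58 over left-out libraries. In simulated counts for palbociclib against vehicle, edgeR called 2% of 1.5-fold and 10% of 2-fold changes. Most real changes of that size would therefore not pass in that contrast.

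Groups without overlap were counted the same way. They were found for 3 of 9 network genes with palbociclib against vehicle (Mxd3 higher, Mxd4 and Mnt lower), where 5.04% of all genes had no overlap (2.83% higher, 2.21% lower), and for 0 with rapamycin (3.07%). They were found for 1 with both drugs against vehicle (Mnt lower, with 2.18% of all genes lower and 5.56% in either direction), 1 with both against palbociclib (Mxd3 lower, with 1.61% lower and 3.85% in either direction) and 0 with both against rapamycin (8.85%). With 8 libraries a side, 0 were found for averaged palbociclib (0.3%) and 0 for averaged rapamycin (0.0196%). The palbociclib, rapamycin and combination contrasts share the vehicle libraries, so their values are set side by side and not counted as separate evidence.

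The balance of the arms was described by summing TPM per library. Myc and Mycn together gave 66.7 ± 20.4 TPM with vehicle, 52.1 ± 22.9 with palbociclib, 66.1 ± 15.4 with rapamycin and 49.5 ± 5.76 TPM with both drugs (SD, n = 4 each). Mxd1, Mxd3, Mxd4, Mxi1 and Mnt together gave 115 ± 7.74, 134 ± 23.3, 129 ± 12.4 and 164 ± 30.4 TPM in the same order. The ratio of the repressing to the MYC sum was 1.32, 2.00, 1.61 and 2.41 in vehicle libraries and 2.42, 2.92, 4.41 and 3.79 with both drugs, so all combination libraries lay above the highest vehicle library, the closest pair at 2.42 and 2.41. With palbociclib the ratio was 1.88, 1.57, 5.80 and 3.35 and with rapamycin 1.76, 2.75, 2.00 and 1.601, both overlapping vehicle. Mxd1 made up 47.5% ± 5.50 of the repressing sum with vehicle and 59.6% ± 12.0 with both drugs. No test was made of the ratio or of its relation with the neutrophil share.

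**Figure D4:**
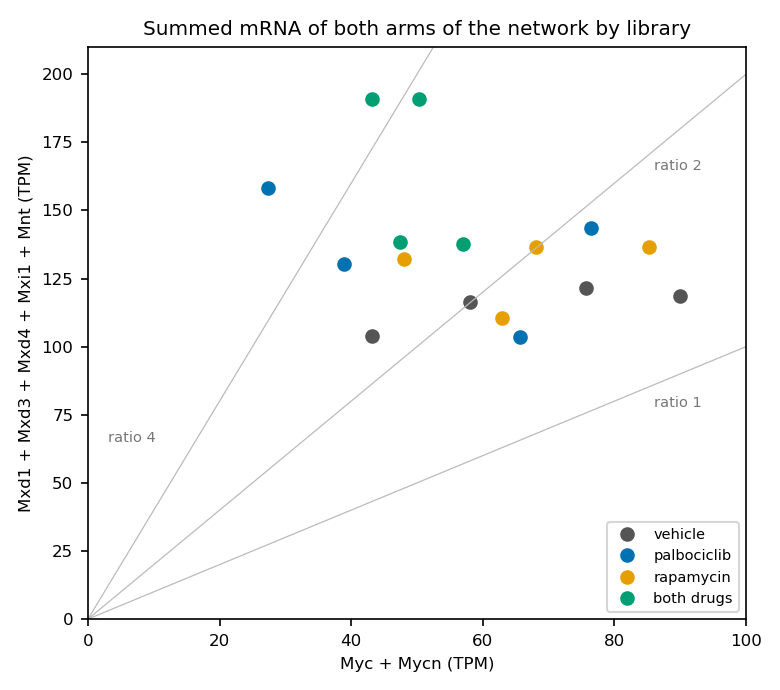
Summed TPM of Mxd1, Mxd3, Mxd4, Mxi1 and Mnt (vertical) against summed TPM of Myc and Mycn (horizontal), 1 point per library, with grey lines at ratios of 1, 2 and 4. The 4 combination libraries lie above the line of ratio 2, at 2.42 to 4.41, and the vehicle libraries lie at 1.32 to 2.41.

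Across the 16 libraries, 6 of the 10 pairs among the 5 repressing partners had a negative Pearson's r of log2 CPM. Mxd4 and Mnt had r = 0.708, Mxd1 and Mxi1 0.508, Mxd1 and Mxd3 0.343 and Mxd3 and Mxi1 0.232. The negative pairs were Mxd3 with Mxd4 (-0.758) and with Mnt (-0.619), Mxd1 with Mxd4 (-0.576) and with Mnt (-0.542), and Mxi1 with Mxd4 (-0.558) and with Mnt (-0.225). Myc and Mycn had r = 0.455, and Myc and Max r = 0.305. These are descriptions over 16 libraries that share treatment groups and blood cell RNA, with no test. The 3 other genes most like Myc in their pattern, by r over the 16 libraries, were Ctse (0.839), Hba-a1 (0.812) and Med26 (0.800). Those most like Mycn were Gpx4 (0.897), Glipr1l1 (0.854) and Foxo3 (0.843), and those most like Max were Fcna (0.900), BC037034 (0.856) and Eml2 (0.831). Hba-a1 is 1 of 11 listed erythroid genes. Their summed share of counts was 0.0770% ± 0.0626 with vehicle and 0.0523% ± 0.0524 with palbociclib (SD, n = 4 each). It was 0.109% ± 0.0584 with rapamycin and 0.0284% ± 0.0139 with both drugs. The relation of Myc with this share was not tested.

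Genes that MYC activates were looked at as a list of 50 targets for ribosome making, nucleotide and energy metabolism and cell growth, all of which were tested. With palbociclib, 40 of the 50 were higher and 10 lower than vehicle, with a median log2 difference of 0.14, beside 47.8% higher and a median of -0.03 over all tested genes. With rapamycin, 22 were higher and 28 lower (median -0.08, beside 49.0% and -0.01 over all genes), and with both drugs 33 were higher and 17 lower (median 0.13, beside 48.4% and -0.02). edgeR called none of the 50 in these 3 contrasts, with 9, 6 and 7 past an unadjusted p of 0.05, and DESeq2 called 2 (Hk2 and Eif4a1), 0 and 1 (Eif4a1). Over all tested genes, 9.51%, 7.65% and 10.5% were past that edgeR p, and these shares apply to each list below. DESeq2 called more genes than edgeR over all genes in every contrast, as counted further below. Of all 15308 tested genes it called 112, 86 and 184 in these 3 contrasts, and these counts also apply to each list below. In the same palbociclib contrast, 17 of 19 neutrophil genes were higher (median 0.98), 11 of 12 tested B cell genes lower (median -2.02) and 10 of 12 HSC markers lower (median -0.35), none of them called by edgeR. With both drugs 12 of 19 neutrophil genes were higher (median 0.45), 12 of 12 B cell genes lower (median -4.82) and 6 of 12 HSC markers lower (median 0.0050). With rapamycin these were 12 of 19 higher (median 0.11), 11 of 12 lower (median -3.48) and 5 of 12 lower (median 0.28). Their part in the levels of the targets was not tested. The smallest p with palbociclib belonged to Hk2, the hexokinase of the first step of glycolysis, at 77.5 ± 23.3 CPM with vehicle and 38.2 ± 10.3 CPM with palbociclib (-1.02 ± 0.23, edgeR adjusted p = 0.212). With rapamycin it was Hk2 again, at 44.8 ± 3.37 CPM (-0.79 ± 0.23, edgeR adjusted p = 0.429), followed by Pes1, a factor of large ribosomal subunit assembly (-0.41 ± 0.13, edgeR adjusted p = 0.496). Npm3, a nucleolar chaperone, was at 2.73 ± 0.299 CPM with both drugs against 7.76 ± 5.17 CPM with vehicle (-1.51 ± 0.51, edgeR adjusted p = 0.307).

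Eif4a1, the RNA helicase of translation initiation, was the 1 target that edgeR called in any contrast. It stood at 258 ± 70.0 CPM with vehicle and 304 ± 49.4 CPM with rapamycin, and at 447 ± 48.4 CPM with palbociclib and 462 ± 20.9 CPM with both drugs. The lowest library given palbociclib, at 403 CPM, was above the highest of the other libraries, at 353 CPM. Of all tested genes, 0.3% had no overlap in either direction in that comparison. Averaged over rapamycin, Eif4a1 rose with palbociclib by 0.70 ± 0.13 (edgeR adjusted p = 0.0390), in a contrast where 43 of the 50 targets were higher and 7 lower (median 0.17, beside -0.02 over all genes). DESeq2 called 4 of the 50 in that contrast (Cdk4, Eif4a1, Eif4e and Ldha), where it called 475 of all 15308 tested genes and edgeR 42. The call was lost without any 1 of 12 of the 16 libraries, with adjusted p up to 0.107 and a log2 difference between 0.62 and 0.77 throughout, and it was lost in 4 of 10 other settings. These were limma on log2(TPM + 1), at an adjusted p of 0.0589, on log2(TPM + 0.1), at 0.0616, and without a filter on TPM, at 0.116, and edgeR without vehicle 3, vehicle 4 and rapamycin 3, where the log2 difference was 0.53 and the adjusted p 0.0662. The libraries whose loss kept the call were vehicle 2, 3 and 4 and palbociclib 1.

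Of 18 genes that MYC represses, 17 were tested, and Cdh2 did not pass the filter. With palbociclib 8 were higher and 9 lower (median -0.00), with rapamycin 6 and 11 (median -0.27) and with both drugs 9 and 8 (median 0.15). edgeR called none, with 2, 4 and 5 past an unadjusted p of 0.05, and DESeq2 called Ndrg2 with rapamycin (-1.23, adjusted p = 0.0214). Cdkn1a, which encodes the cell cycle inhibitor p21, stood at 190 ± 50.7 CPM with vehicle, 126 ± 20.1 with palbociclib, 121 ± 28.9 with rapamycin and 211 ± 18.4 CPM with both drugs. Its palbociclib difference was -0.60 ± 0.21 (edgeR adjusted p = 0.403). Ndrg2, a MYC-repressed gene of differentiation, was at 46.1 ± 17.0 CPM with vehicle and 19.7 ± 5.52 CPM with rapamycin (-1.22 ± 0.30, edgeR adjusted p = 0.399). Hbp1, a transcriptional repressor of the cell cycle, stood at 177 ± 49.2 CPM with vehicle and at 283 ± 60.1 and 277 ± 36.2 CPM in the groups given rapamycin (0.68 ± 0.21 and 0.64 ± 0.21, edgeR adjusted p = 0.497 and 0.305). Itgb1, the β1 integrin gene, differed by 0.35 ± 0.14 with palbociclib and 0.46 ± 0.14 with both drugs (edgeR adjusted p = 0.449 and 0.264).

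**Figure D5:**
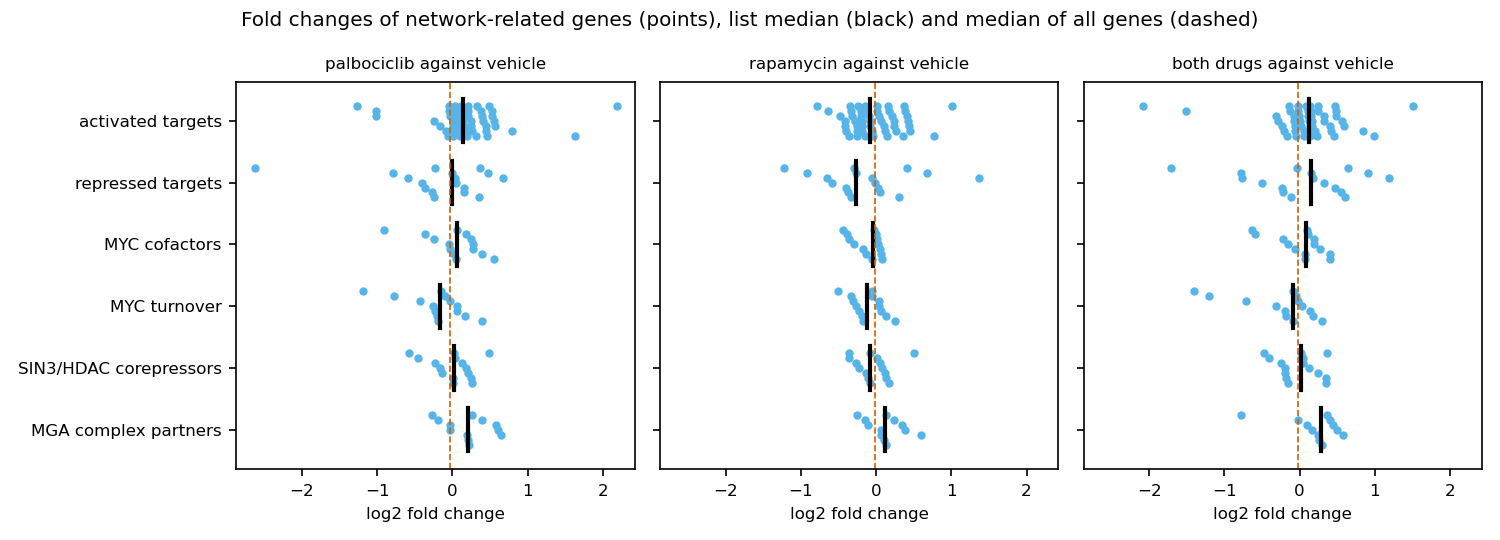
Log2 fold change from vehicle of every tested gene in 6 lists around the network, 1 point per gene, for palbociclib, rapamycin and both drugs, with a black bar at each list's median and a dashed line at the median of all genes. The list medians lie between -0.27 and 0.28, against medians of -0.03, -0.01 and -0.02 over all 15308 genes.

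Of 14 genes of MYC protein turnover, all tested, 10 were lower with palbociclib (median -0.17), 9 with rapamycin (median -0.12) and 10 with both drugs (median -0.09). edgeR called none, with 1, 0 and 2 past an unadjusted p of 0.05, and DESeq2 called Gsk3a with both drugs (-1.43, adjusted p = 0.0250). Gsk3a, a kinase that marks MYC for destruction, stood at 60.8 ± 27.0 CPM with vehicle and 58.4 ± 27.9 CPM with rapamycin, and at 26.6 ± 7.27 CPM with palbociclib and 22.9 ± 5.69 CPM with both drugs. Its vehicle libraries reached down to 24.8 CPM, so the groups overlapped, and the differences were -1.19 ± 0.37 with palbociclib and -1.41 ± 0.37 with both drugs (edgeR adjusted p = 0.335 and 0.226). Fbxw7, the ubiquitin ligase subunit that receives marked MYC, was at 6.03 ± 1.80 CPM with vehicle and 2.61 ± 1.07 CPM with both drugs (-1.21 ± 0.47, edgeR adjusted p = 0.369). Skp2, another ubiquitin ligase subunit, differed by 0.39 ± 0.28 with palbociclib, and with rapamycin Usp28, a deubiquitinase that spares MYC, differed by -0.50 ± 0.35 and Gsk3b by -0.33 ± 0.25.

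Cofactors of MYC numbered 14, all tested, with 9 higher and 5 lower with palbociclib (median 0.06), 6 and 8 with rapamycin (median -0.04) and 9 and 5 with both drugs (median 0.09). edgeR and DESeq2 called none in these contrasts, with 1, 0 and 2 past an unadjusted edgeR p of 0.05. Kat5, the TIP60 acetyltransferase, stood at 62.0 ± 29.9 CPM with vehicle, 32.9 ± 1.13 with palbociclib, 47.5 ± 12.7 with rapamycin and 39.9 ± 3.77 CPM with both drugs. Its 4 palbociclib libraries, at 31.3 to 33.9 CPM, lay below the lowest vehicle library at 36.7 CPM, with a difference of -0.91 ± 0.27 (edgeR adjusted p = 0.323). Of all tested genes, 2.21% lay lower without overlap in that contrast. Wdr5, a scaffold that helps place MYC on chromatin, differed by 0.39 ± 0.20 with palbociclib, and Paf1, an elongation factor, by 0.40 ± 0.18 with both drugs. With rapamycin, Smarcb1 of the SWI/SNF remodeller differed by -0.29 ± 0.19 and Zbtb17, the MIZ1 factor through which MYC represses, by -0.44 ± 0.29.

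The SIN3 and histone deacetylase corepressor that MXD proteins and MNT recruit was represented by 15 genes, all tested. edgeR and DESeq2 called none in the contrasts against vehicle, with 1, 0 and 2 past an unadjusted edgeR p of 0.05. With palbociclib 10 were higher and 5 lower (median 0.02), with rapamycin 7 and 8 (median -0.08) and with both drugs 8 and 7 (median 0.02). Sin3a, the scaffold, differed by 0.49 ± 0.25 and Suds3, a SIN3 subunit, by -0.58 ± 0.22 with palbociclib. With both drugs, Rbbp4 and Hdac1, the histone chaperone and deacetylase of the complex, differed by 0.35 ± 0.14 and 0.36 ± 0.16, and with rapamycin the subunits Sap18 and Brms1 differed by -0.35 ± 0.19 and -0.36 ± 0.21.

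Partners of MGA in PRC1.6 numbered 12, all tested, with 8 higher and 4 lower with palbociclib (median 0.21), 9 and 3 with rapamycin (median 0.12) and 10 and 2 with both drugs (median 0.28). edgeR and DESeq2 called none in these contrasts, with 2, 1 and 4 past an unadjusted edgeR p of 0.05. Tfdp1, which pairs with E2F factors, stood at 245 ± 25.2 CPM with vehicle, 382 ± 75.9 with palbociclib, 289 ± 53.1 with rapamycin and 364 ± 61.9 CPM with both drugs. All 4 palbociclib and all 4 combination libraries, from 283 CPM upward, lay above the highest vehicle library at 266 CPM, with differences of 0.64 ± 0.18 and 0.57 ± 0.18 (edgeR adjusted p = 0.304 and 0.268). Of all tested genes, 2.83% lay higher without overlap with palbociclib. With both drugs, 5.56% had no overlap in either direction. Cbx3, a heterochromatin protein, was at 56.9 ± 8.88 CPM with vehicle and 87.0 ± 15.5 and 86.2 ± 22.2 CPM with palbociclib and rapamycin (0.61 ± 0.20 and 0.60 ± 0.20, edgeR adjusted p = 0.373 and 0.513). E2f6, which brings the complex to DNA, differed by 0.34 ± 0.17 with rapamycin, and Ring1, its ubiquitin ligase, by -0.78 ± 0.30 with both drugs.

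The parallel MLX arm, whose proteins sense glucose and share MXD partners, had 2 of 3 genes tested, since Mlxipl did not pass the filter. Mlxip stood at 89.7 ± 45.9 CPM with vehicle and 49.7 ± 11.0 CPM with palbociclib (-0.85 ± 0.32, edgeR adjusted p = 0.423), its vehicle libraries ranging from 36.2 to 148 CPM. Mlx stood at 64.7 ± 12.3 CPM with vehicle, 83.5 ± 26.9 with palbociclib, 49.0 ± 7.33 with rapamycin and 62.4 ± 9.75 CPM with both drugs. Its differences were 0.37 ± 0.22, -0.40 ± 0.22 and -0.05 ± 0.22. Neither gene was called by edgeR or DESeq2, with 1, 0 and 0 past an unadjusted edgeR p of 0.05.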

How the data were processed

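Bulk RNA-seq of sorted HSCs was available as 2 tables of 16 libraries, 4 per group. Per the submitters' processing notes, STAR 2.5.3a, RSEM 1.3.0 and SAMtools 1.3 were used with the mm10 build, and per the labels' protocols the libraries came from a Clontech low-input kit. The authors deposited expected counts (here whole numbers) and log2(TPM + 1) values, whose TPM has the same sum in each library. Symbols (50462 of 50686 identifiers matched) and coordinates came from GENCODE M21. The strand setting of the counting is not given in the sources used here.

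edgeR 4.0.16 (R 4.3.3) was the main test on the counts, after a filter for a minimum count of 10 (total of 15) and TMM scaling (factors 0.889 to 1.14), in 1 fit of 16 libraries with 12 residual degrees of freedom. The biological coefficient of variation was 55.8%. Alternatives used DESeq2 1.42.0 and limma 3.58.1. The fit was tested on simulated counts for palbociclib against vehicle, with 50 genes changed at each size. edgeR called 2% of 1.5-fold, 10% of 2-fold, 64% of 4-fold and 76% of 8-fold changes. Replicates of a group differed beyond sampling noise (chi-square per degree of freedom at least 23.2 over 24 pairs). Blood cell shares are summed counts of the listed genes, and their relations used 100000 permutations, two-sided.

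The network's genes and all lists were chosen with earlier results of these data known. Levels are given for all 10 genes. Fold changes are described for the genes with an unadjusted p under 0.05 in a contrast or the 3 of smallest p, and others are given as values. From each list the text names those called and the 2 of smallest p against vehicle. Most-alike genes are the 3 of highest r with a symbol and a mean log2 CPM of at least 1, predicted genes left out.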

Additional observations from a re-analysis of the deposited data

Results flagged for a closer look

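In 36 groups of 4 libraries (9 genes in 4 groups), 2 libraries stood far from the other 3 by Dixon's test of the gap to the nearest value, which flags about 1 in 20 groups by chance. Max in combination replicate 2, at 21.7 CPM, was the lowest of a group whose other libraries lay between 33.3 and 34.5 CPM. Mnt in palbociclib replicate 1, at 9.62 CPM, was the highest of a group whose other libraries lay between 5.62 and 6.11 CPM.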

How the results depend on the processing

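The 24 differences of network genes described by rule kept their direction in all 255 values from other settings and in all 384 values with 1 library left out. Their side of the threshold changed once: Mnt for palbociclib averaged over rapamycin passed in DESeq2 (-0.88), so the number of network genes called there was 1. With 1 library left out the number of network genes called was 0 in every contrast. The count of all genes called moved more, and the causes were not tested. DESeq2 called 112 genes for palbociclib, 86 for rapamycin and 184 for both drugs against vehicle, 21 for both against palbociclib, 168 for both against rapamycin, 39 for the interaction, 475 (220 higher, 255 lower) for averaged palbociclib and 42 for averaged rapamycin, against 0, 1, 0, 0, 5, 0, 42 (14 higher, 28 lower) and 0 in edgeR. On log2(TPM + 1), limma called 0 for rapamycin, 13 for both against rapamycin and 18 for averaged palbociclib. On log2(TPM + 0.1) the last 2 were 12 and 18. Without a filter on TPM they were 0 and 8, with 0 for rapamycin, 1 for both against palbociclib and 2 for averaged rapamycin. Limma-voom called 18 for averaged palbociclib. Without a filter on counts edgeR called 16 for both against rapamycin, 4 for the interaction and 23 for averaged rapamycin. RLE size factors gave 3 for the interaction. Fitting the compared libraries alone gave 0 for rapamycin and 56 for both against rapamycin. Blood cell covariates gave 2 for rapamycin, 1 for both against vehicle and 10 for both against rapamycin. Without vehicle 3, vehicle 4 and rapamycin 3 there was 1 for palbociclib, 1 for both against vehicle, 3 for the interaction and 14 for averaged palbociclib. With 1 library left out, the counts ran from 0 to 2 for rapamycin, 0 to 16 for both against rapamycin, 0 to 5 for the interaction and 6 to 58 for averaged palbociclib, and stayed at 0 in the other contrasts.

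Same-numbered libraries of different groups had correlated deviations of -0.21 to 0.35, and 7 of 24 were over 0.1. Differently numbered libraries ran from -0.39 to 0.31. Whether the replicate numbers pair the libraries was not tested. A fit with the replicate block called 1 gene for palbociclib, 11 for both against rapamycin and 3 for averaged rapamycin, and no network gene.

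Of the relations with blood cell shares, 3 passed, and 1 did with the 2 libraries of most extreme share left out, where Mxd4 gave -0.562 and Mxi1 0.636. By rank 2 passed, and with values centred within groups 4 did, among them Mxd1 with the B cell share (0.681). Spearman's rho for Mxi1 was 0.571. Among the 43 differences of list genes, 11 of 1160 values changed sign. Usp28 with rapamycin was 0.043 without vehicle 3, vehicle 4 and rapamycin 3. With both drugs, Mlxip was 0.042, 0.056 and 0.042 in the limma fits on log2(TPM + 1), log2(TPM + 0.1) and without a filter, and ran from -0.60 to 0.012 with 1 library left out, the latter without vehicle 4. Mlx was 0.10 in each of those limma fits, 0.11 without the 3 libraries, and ran from -0.17 to 0.052 with 1 library left out, above 0 without vehicle 3 (0.052) or combination 1 (0.014). In DESeq2, Hk2 and Eif4a1 with palbociclib, Ndrg2 with rapamycin and Gsk3a and Eif4a1 with both drugs passed. Depth limits Mxd3 most, at 26 to 133 counts per library, and Mnt, at 53 to 302.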

Other observations

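The 2 deposited scales differ for Mga. Its TPM per count, relative to the library, varied 3.62-fold over the 16 libraries, from the lowest in palbociclib 1 to the highest in vehicle 2, which is at the 98.4 percentile of 9945 genes with at least 20 counts in each library. The other 8 expressed network genes varied 1.07-fold to 1.37-fold. The Mga levels in vehicle libraries were 15.6, 10.6, 3.19 and 2.47 TPM where the counts gave 30.7, 21.8, 12.3 and 14.5 CPM, a wider range in TPM than in CPM. The transcript lengths that RSEM used were not analysed here.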
